A study of Mus musculus with 23 samples.

Results

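NMDA receptor subunits were taken as the 6 genes *Grin1*, *Grin2a*, *Grin2b*, *Grin2c*, *Grin2d* and *Grin3a*, found by their Ensembl identifiers among the 56941 genes of the count tables. All 6 had counts in every library and passed the filter on low counts. RNA was measured in 23 libraries of primary hippocampal neurons prepared from newborn (P0) mice homozygous for Nedd8cKO, an allele made in FVB/N zygotes and given as kept in C57BL/6N, in which LoxP sites flank *Nedd8* exons 2 and 3. The neurons carried this allele in both groups and were infected after 1 day in vitro with lentivirus that used the Synapsin1 promoter to express either red fluorescent protein (RFP, 11 libraries) or CRE recombinase tagged with RFP (CRE, 12 libraries). The labels give 12 days in culture at collection. The dishes hold every cell type that survives dissociation, whereas the promoter driving CRE is neuronal, so RNA of other cells is part of each value.

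NMDA receptors are glutamate-gated cation channels made of 4 subunits, of which GluN1, encoded by *Grin1*, is present in every receptor. The partners are GluN2 subunits, encoded by *Grin2a* to *Grin2d*, which bind glutamate and set channel kinetics, or GluN3 subunits, encoded by *Grin3a* and *Grin3b*, which bind glycine and lower calcium permeability. In the hippocampus GluN2B predominates around birth and GluN2A increases as neurons mature, which is why the *Grin2a* to *Grin2b* ratio is read as a measure of maturation.

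All 6 genes lie on the minus strand of GRCm39. *Grin1* (ENSMUSG00000026959) spans chr2:25181186-25209226, *Grin2a* (ENSMUSG00000059003) chr16:9385762-9813424 and *Grin2b* (ENSMUSG00000030209) chr6:135690231-136150548. *Grin2c* (ENSMUSG00000020734) spans chr11:115139992-115158525, *Grin2d* (ENSMUSG00000002771) chr7:45481304-45527802 and *Grin3a* (ENSMUSG00000039579) chr4:49661611-49845847. The exons of *Grin1* share 1314 bases with *Lrrc26* and *Grin1os* on the opposite strand, and the strand setting of the counting was not given in the sources used here, so reads in those bases cannot be assigned with certainty. The overlaps with predicted genes were 1025 bases in *Grin2b*, 643 in *Grin2d*, 411 in *Grin3a* and 108 in *Grin2c*, and *Grin2a* had none.

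RefSeq promoter windows matched 3 of the 6 members, *Grin1*, *Grin2c* and *Grin2d*. The windows were placed on GRCm39 by exact match and searched, on both strands and over the 250 bases before the RefSeq start, for the GC box GGGCGG and the E-box CACGTG. Stretches of *Grin1*, which was not called over the 21 libraries compared later, and of *Grin2c*, which was, are shown with the matches in capitals. The stretches differ in length and in their place relative to exons, so they are not like for like. The *Grin1* stretch (chr2:25209227-25209449, minus strand) covers bases 250 to 28 before the start and stops at the first annotated exon. The *Grin2c* stretch (chr11:115158097-115158121, minus strand) covers bases 52 to 28 before the RefSeq start, within an exon of annotated *Grin2c* transcripts that start further upstream.
Grin1: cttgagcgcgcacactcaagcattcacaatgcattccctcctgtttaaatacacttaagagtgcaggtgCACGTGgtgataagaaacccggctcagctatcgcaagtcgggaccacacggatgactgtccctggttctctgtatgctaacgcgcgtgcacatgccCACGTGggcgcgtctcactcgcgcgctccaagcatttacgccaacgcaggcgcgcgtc
Grin2c: tgGGGCGGgccgGGGCGGGGCGGag
*Grin1* had 2 E-boxes, starting 181 and 85 bases before the start, and no GC box. *Grin2c* had 3 GC boxes, starting 50, 40 and 35 bases before the start, the last pair sharing a base, and no E-box. *Grin2d* had neither motif, and all 250 bases of its window lay within annotated exons of the gene. Over all 32851 RefSeq windows of this length, 32.7% held a GC box and 6.0% an E-box. The matches describe these letters only.

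The groups were compared over 21 libraries, 11 CRE and 10 RFP, with total counts of 7430401 to 13345552 in CRE and 9833872 to 17112815 in RFP libraries. The remaining pair, Nedd8Cre3-3 and Nedd8RFP3-2, was left out as in the count table of the study. *Nedd8*, the targeted gene, ranged from 5.92 to 17.96 CPM in the CRE libraries compared and from 44.1 to 76.0 CPM in the RFP libraries compared. Its log2 fold change was -2.44 (edgeR quasi-likelihood test with Benjamini-Hochberg adjustment, adjusted p = 6.98e-11). CPM, the usual depth-scaled count unit, was computed with TMM factors, and a gene was called at an adjusted p under 0.05 over the 14488 genes tested. Of these genes, 4370 (30.2%) were called, 2374 (16.4%) higher and 1996 (13.8%) lower in CRE.

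Libraries Nedd8Cre1-3, Nedd8Cre3-3 and Nedd8RFP2-4 stood apart. In them the deviation of gene levels from the median of the 23 libraries followed GC content, with rank correlations of 0.763, 0.583 and 0.502, against -0.233 to 0.217 in the other 20 libraries. Their mitochondrial share was 0.261%, 1.83% and 3.44% of counts, against 6.997% to 11.1% in the others. The GC content of the members' canonical transcripts was 59.9% in *Grin1*, 61.8% in *Grin2c* and 65.0% in *Grin2d*, and lower in *Grin2a* (45.1%), *Grin2b* (45.8%) and *Grin3a* (49.7%). In Nedd8Cre1-3, *Grin1*, *Grin2c* and *Grin2d* had their highest CPM and *Grin2a*, *Grin2b* and *Grin3a* their lowest CPM among the 11 CRE libraries. Nedd8Cre1-3 is among the 21 libraries, so the members' results are also given without it where that moves a call, and the lists' counts without it and Nedd8Cre3-3.

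Upon CRE expression 3 of the 4 GluN2 transcripts were lower. *Grin2b*, *Grin2a* and *Grin2c* were called lower, with CRE means at 0.513, 0.589 and 0.403 of the RFP means, and no member was called higher. The 3 called lower among 6 members stand against the 13.8% of all genes called lower. *Grin1*, *Grin2d* and *Grin3a* were not called over the 21 libraries.

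*Grin2b*, encoding the subunit that predominates in young neurons, was the most abundant GluN2 transcript. Its lowest, median and highest values were 526.3, 678 and 811 CPM in the 10 RFP libraries and 122, 369 and 451 CPM in the 11 CRE libraries. Every CRE library was below every RFP library, as was the case for 302 of 14488 genes (2.08%) whatever their function. This gave a log2 fold change of -0.98 (SE 0.15, adjusted p = 2.44e-05). Nedd8Cre1-3 gave the lowest value, and without it the log2 fold change was -0.89 (adjusted p = 1.74e-08). The 12 CRE libraries were also below the 11 RFP libraries when all 23 were taken. Mean CPM in RFP and CRE libraries was 694 and 311 in culture 1, 659 and 375 in culture 2, and 699 and 368 in culture 3, taking the number after Cre or RFP in a library name as the culture. With counts summed per culture, 3 against 3, the log2 fold change was -0.97 (adjusted p = 4.03e-05).

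*Grin2a*, encoding the subunit of mature synapses, was lower as well. Its values ran from 85.8 to 168 CPM (median 146) in RFP and from 18.7 to 116 CPM (median 83.4) in CRE libraries. The groups overlapped, with 6 of 11 CRE libraries below every RFP library and 5 within the RFP range. Its log2 fold change was -0.78 (SE 0.19, adjusted p = 0.00284). It was -0.68 without Nedd8Cre1-3 (adjusted p = 3.63e-05), and it was not called once culture 2 was left out (-0.87, adjusted p = 0.0537). In RFP libraries the level differed by culture, with means of 163, 127 and 122 CPM, whereas the CRE means were 76.5, 84.1 and 80.7 CPM.

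*Grin2c*, encoding a subunit best known from cerebellar granule cells and glia, was the scarcest of the 6. Raw counts were 11 to 60 per CRE library and 37 to 189 per RFP library over the 21. Levels ran from 3.79 to 14.7 CPM (median 8.22) in RFP and from 1.02 to 8.17 CPM (median 2.81) in CRE libraries. Again 6 of 11 CRE libraries were below every RFP library and the rest lay within the RFP range. The resulting log2 fold change was -1.34 (SE 0.32, adjusted p = 0.00196). Without Nedd8Cre1-3, its highest CRE library, it was -1.55 (adjusted p = 0.000109), and over all 23 libraries, where Nedd8Cre3-3 had 17.1 CPM, it was -0.98 (adjusted p = 0.0437).

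**Figure D1:**
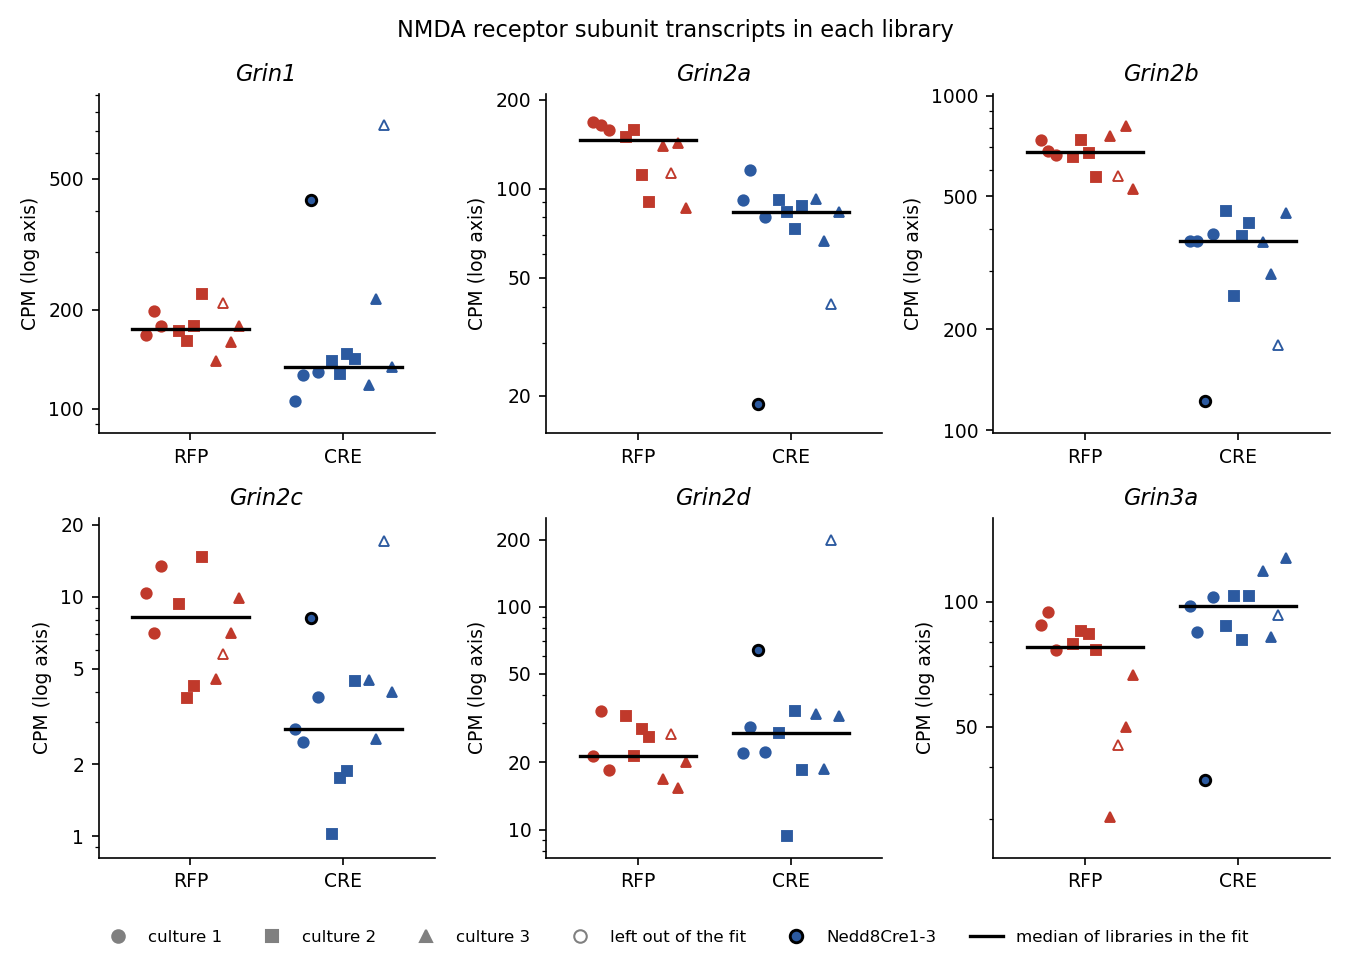
CPM (log axis) of each member in each of the 23 libraries, by group (RFP red, CRE blue) and culture (symbol), with the median of the 21 compared libraries as a bar; open symbols are the libraries left out and the black outline marks Nedd8Cre1-3. All CRE values of *Grin2b* (122 to 451 CPM in the compared libraries) lie under the RFP values (526.3 to 811 CPM), whereas in *Grin1* and *Grin2d* the library Nedd8Cre1-3 lies above the other compared CRE libraries.

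The remaining GluN2 gene, *Grin2d*, encodes a slowly deactivating subunit found early in development and in interneurons. It ran from 15.4 to 34.1 CPM (median 21.4) in RFP and from 9.35 to 63.8 CPM (median 27.2) in CRE libraries, and 9 of 11 CRE libraries lay within the RFP range. The log2 fold change of 0.24 (SE 0.23, adjusted p = 0.469) was not called. The 63.8 CPM came from Nedd8Cre1-3, and without that library the log2 fold change was 0.05 (adjusted p = 0.863). In Nedd8Cre3-3, left out of the comparison, *Grin2d* was at 199.9 CPM.

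*Grin1*, encoding the obligatory subunit, was not called over the 21 libraries, and was called once Nedd8Cre1-3 alone was left out. RFP libraries ran from 139 to 222 CPM (median 175), and CRE libraries from 105 to 431 CPM (median 133). Of the 11 CRE libraries, 6 were below every RFP library, 4 within the RFP range and 1, Nedd8Cre1-3, above it. The log2 fold change was -0.11 (SE 0.19, adjusted p = 0.721). Without Nedd8Cre1-3 it was -0.36 (SE 0.10, adjusted p = 0.00556), and with the trend of each library with GC content removed it was -0.28 (adjusted p = 0.00999). Without the whole of culture 1, which holds Nedd8Cre1-3, it was -0.26 and not called (adjusted p = 0.147). With counts summed per culture it was -0.23 and not called (adjusted p = 0.158). Over all 23 libraries it turned to 0.24 (adjusted p = 0.562), with Nedd8Cre3-3 at 726 CPM. Within cultures it was 0.12, -0.45 and -0.04 in cultures 1, 2 and 3, called in culture 2 alone (adjusted p = 0.0265).

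*Grin3a*, encoding a GluN3 subunit that is highest in early postnatal life, was not called over the 21 libraries either, and was called without Nedd8Cre1-3. Its values ran from 30.2 to 94.8 CPM (median 77.9) in RFP and from 37.2 to 127 CPM (median 97.9) in CRE libraries. None of the 11 CRE libraries was below every RFP library, and 6 were above all of them. The log2 fold change of 0.33 (SE 0.18, adjusted p = 0.173) did not pass the threshold. Without Nedd8Cre1-3, the lowest CRE library, it was 0.42 (SE 0.14, adjusted p = 0.0227), whereas with the GC trend of each library removed it was 0.23 (adjusted p = 0.261). The difference was uneven between cultures, at -0.11, 0.16 and 1.16 on the log2 scale in cultures 1, 2 and 3, and called in culture 3 alone (adjusted p = 0.0309). Mean CPM in culture 3 was 48.9 in RFP and 110 in CRE libraries, against 86.4 and 80.6 in culture 1. Without culture 3 the log2 fold change was 0.02 (adjusted p = 0.961), and whether the cultures differ was not tested.

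**Figure D2:**
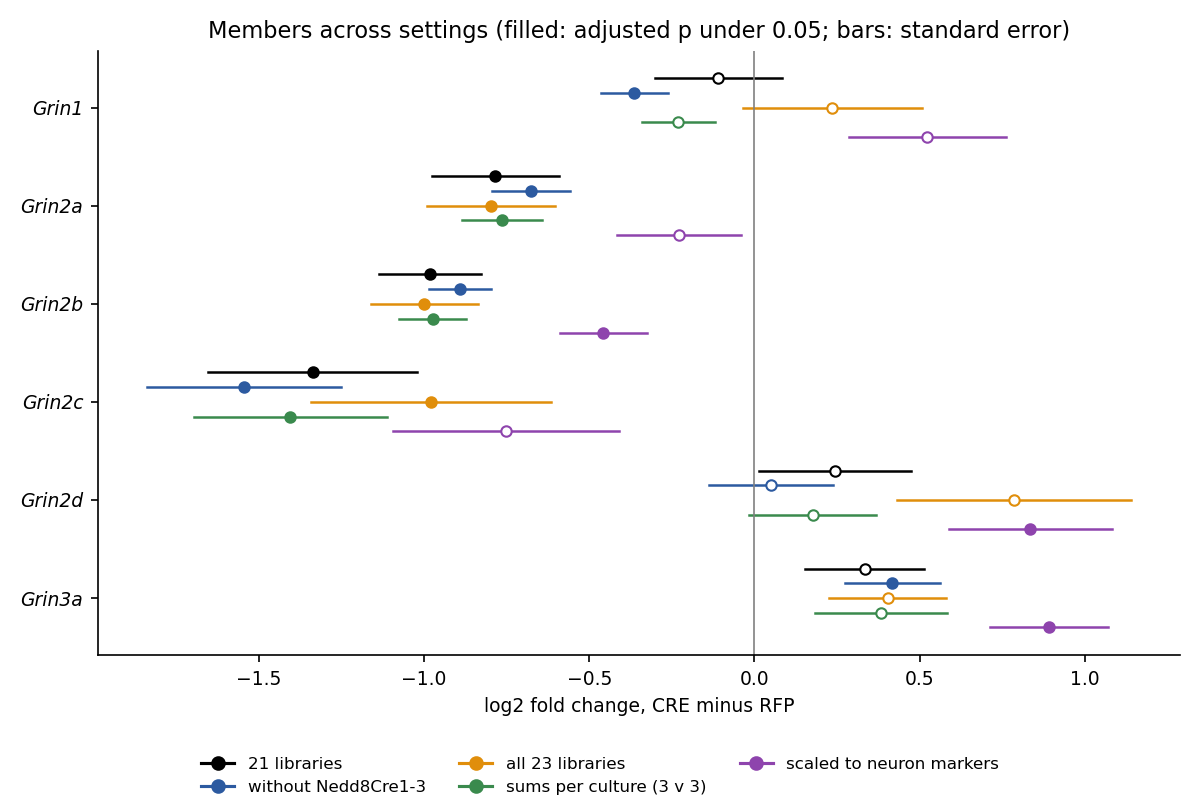
Log2 fold change (CRE minus RFP) of each member with its standard error, over 21 libraries, without Nedd8Cre1-3, over all 23 libraries, with counts summed per culture and with the counts of 12 neuron markers as library size; filled points had an adjusted p under 0.05. *Grin2b* is filled and below 0 in all 5 settings, *Grin1* changes sign over all 23 libraries and under neuron marker scaling, and *Grin2a* and *Grin2c* are open under neuron marker scaling.

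Levels of different subunits were compared per kilobase of exon. In RFP libraries *Grin2b* was highest at 26.8 ± 3.36 CPM per kilobase (SD, n = 10), followed by *Grin1* at 15.8 ± 2.03, *Grin2a* at 7.62 ± 1.69, *Grin3a* at 5.56 ± 1.48, *Grin2d* at 2.98 ± 0.82 and *Grin2c* at 0.758 ± 0.340. The ranges of *Grin2a* and *Grin3a*, and those of *Grin3a* and *Grin2d*, overlapped. In CRE libraries *Grin1* (14.9 ± 8.35, SD, n = 11) and *Grin2b* (13.7 ± 3.76) stood side by side with overlapping ranges. They were followed by *Grin3a* at 7.10 ± 1.81, *Grin2a* at 4.49 ± 1.34 and *Grin2d* at 3.59 ± 1.78, whose ranges overlapped with their neighbours, and by *Grin2c* at 0.306 ± 0.176 CPM per kilobase. The order depends on the length used. With the canonical transcript, *Grin1* was above *Grin2b* in RFP libraries (40.6 against 28.1 CPM per kilobase) and in CRE libraries (38.1 against 14.4), and in RFP libraries *Grin3a* and *Grin2a* stood at 9.49 and 9.19.

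As a share of the GluN2 transcripts, per kilobase of exon, *Grin2b* made up 65.5% to 75.1% (median 70.4%) in RFP and 32.7% to 68.2% (median 63.9%) in CRE libraries. *Grin2a* took 15.6% to 22.9% (median 20.4%) in RFP and 7.08% to 29.3% (median 20.4%) in CRE libraries. *Grin2d* took 4.63% to 10.6% (median 7.78%) in RFP and 7.50% to 55.2% (median 13.3%) in CRE libraries, where the 55.2% was Nedd8Cre1-3. *Grin2c* was at medians of 1.85% and 1.29%. These shares were not tested.

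**Figure D3:**
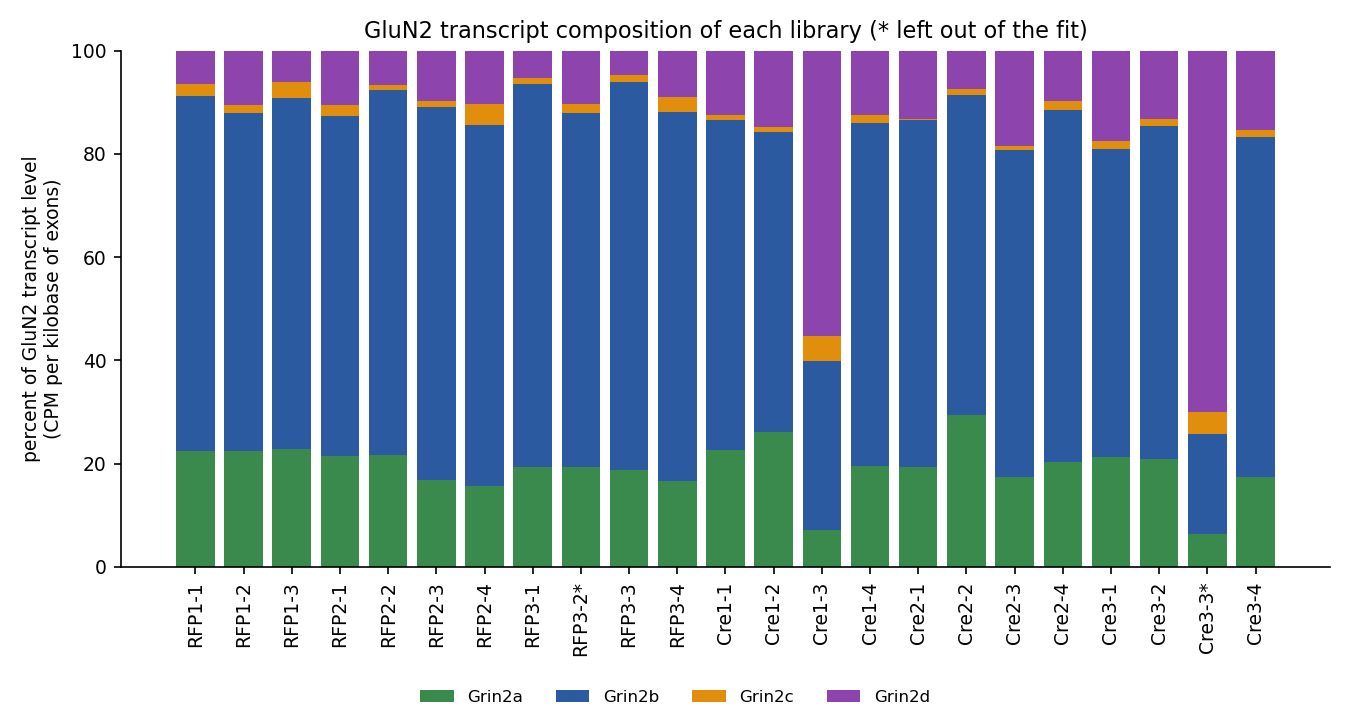
Composition of the GluN2 transcripts (*Grin2a*, *Grin2b*, *Grin2c* and *Grin2d*, in percent of their summed CPM per kilobase of exon) in each of the 23 libraries, RFP on the left and CRE on the right. *Grin2b* is the widest band except in Cre1-3 and Cre3-3, where *Grin2d* is, at 55.2% in Cre1-3.

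The *Grin2a* to *Grin2b* ratio, read as the measure of maturation, did not differ beyond the spread between libraries. Per *Grin2b* count there were 0.158 to 0.241 *Grin2a* counts in RFP libraries (median 0.199) and 0.153 to 0.332 in CRE libraries (median 0.211). Of 11 CRE libraries, 4 were above every RFP library and 1, Nedd8Cre1-3, was below. The difference in the log2 ratio was 0.19 (CRE minus RFP, 95% interval -0.08 to 0.46, two-sided permutation test with 100000 resamples, p = 0.153, adjusted over 6 ratios p = 0.153). The interval leaves room for a decrease of 0.08 and an increase of 0.46 on the log2 scale. Without Nedd8Cre1-3 the difference was 0.25 (permutation test, adjusted p = 0.082). Within cultures it was -0.08, 0.28 and 0.34 in cultures 1, 2 and 3, none of them called by an exact permutation test (adjusted p = 0.857, 0.429 and 0.3). Culture 3 could not be called, since with 3 libraries against 3 the exact test cannot go below an unadjusted p of 0.1, the value it gave. There the compared CRE libraries, at 0.187 to 0.252, were all above the compared RFP libraries, at 0.163 to 0.183. The 2 genes have a similar GC content, and per length of exons the median ratio was 0.283 in RFP and 0.299 in CRE libraries.

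**Figure D4:**
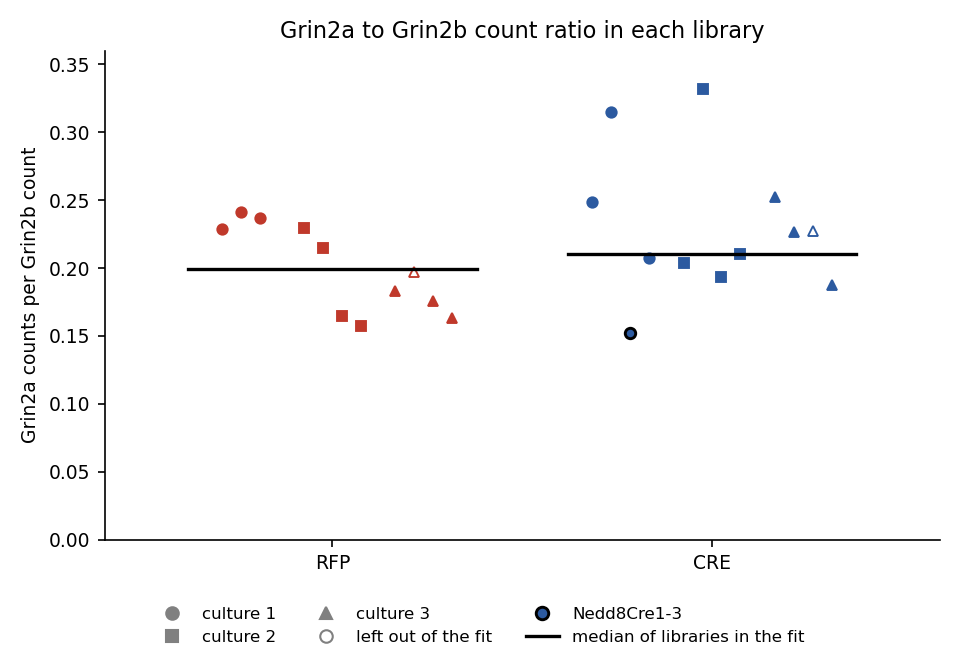
*Grin2a* counts per *Grin2b* count in each library, by group and culture (symbol), with the median of the compared libraries as a bar, 0.199 in RFP and 0.211 in CRE. The groups overlap, 4 CRE libraries lie above every RFP library, and Nedd8Cre1-3 (black outline) is the lowest.

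Ratios to *Grin1* within a library compare each partner subunit with the obligatory one, independent of library scaling. There were 2.57 to 5.44 *Grin2b* counts per *Grin1* count in RFP libraries (median 3.80) and 0.284 to 3.49 in CRE libraries (median 2.94). The log2 ratio differed by -0.82 (CRE minus RFP, 95% interval -1.53 to -0.21, permutation test, adjusted p = 0.00822), and by -0.52 without Nedd8Cre1-3 (permutation test, adjusted p = 0.00728). It was not called without culture 2 (-1.04, exact permutation test, adjusted p = 0.0804) or without culture 3 (-0.80, exact permutation test, adjusted p = 0.0601). The *Grin2c* to *Grin1* log2 ratio differed by -1.15 (95% interval -1.77 to -0.54, permutation test, adjusted p = 0.0066). The *Grin2a* to *Grin1* ratio differed by -0.63 (95% interval -1.47 to 0.10, permutation test, adjusted p = 0.136), and by -0.28 without Nedd8Cre1-3 (permutation test, adjusted p = 0.192). The difference was not called for the *Grin2d* to *Grin1* ratio either (0.37, 95% interval -0.09 to 0.83, permutation test, adjusted p = 0.136). *Grin3a* counts per *Grin1* count were 0.217 to 0.532 in RFP (median 0.446) and 0.0865 to 1.01 in CRE libraries (median 0.729), with 9 of 11 CRE libraries above every RFP library and Nedd8Cre1-3 below all of them. The log2 difference of 0.57 was not called (95% interval -0.13 to 1.18, permutation test, adjusted p = 0.136), and without Nedd8Cre1-3 it was 0.84 (permutation test, adjusted p = 0.00258). With the libraries' log2 ratios averaged per culture, 3 against 3, an exact two-sided permutation test cannot go below 0.1, which is the unadjusted p it gave for *Grin2a*, *Grin2b* and *Grin2c* to *Grin1*.

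The libraries' cell make-up was read from marker lists, since fewer neurons and less of a transcript per neuron cannot be told apart in RNA of a whole dish. All 12 neuron markers were detected, and their summed level was 7039 to 8412 CPM in RFP and 4340 to 7048 CPM in CRE libraries. Of the 12 markers, 6 were lower and 1, *Nefm*, was higher in CRE (median log2 fold change -0.40), and 7 were lower without Nedd8Cre1-3 and Nedd8Cre3-3. The 8 astrocyte markers summed to 3612 to 7845 CPM in RFP and 1559 to 5126 CPM in CRE libraries, with 4 lower and 1, *Gja1*, higher. Of 8 oligodendrocyte lineage markers 5 were lower (646.8 to 1867 CPM in RFP, 425 to 1910 CPM in CRE). Of 8 GABA neuron markers 2, *Slc32a1* and *Dlx5*, were higher and none lower (966 to 1921 CPM in RFP, 833 to 1766 CPM in CRE). Without Nedd8Cre1-3 and Nedd8Cre3-3 the GABA neuron markers had 1 higher gene, *Dlx5*, and 1 lower gene, *Gad2* (-0.30, adjusted p = 0.0408). Microglia markers summed to at most 7.7 CPM, with *Cx3cr1* and *Itgam* at 0 in 20 of 23 libraries, and of the 2 tested *Tmem119* was higher (means of 0.19 CPM in RFP and 1.82 CPM in CRE, adjusted p = 0.000517). Endothelial and mesenchymal markers reached 113 CPM in RFP and 236 CPM in CRE libraries, with 1 of 6 tested genes higher and 1 lower. Of all genes tested, 13.8% were lower and 16.4% higher, and the endothelial and mesenchymal counts were near those shares. Without Nedd8Cre1-3 and Nedd8Cre3-3, 2572 of 14482 genes were lower and 2920 higher. The summed GABA neuron markers had medians of 1262.7 CPM in RFP and 1185.8 CPM in CRE libraries. The part of glial, GABA neuron and other cells in the members' values was not tested. For neurons the fit was repeated with the summed counts of the 12 markers as library size.

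Relative to neuron markers, the median of all genes moved to 0.592, and the log2 fold change was -0.46 for *Grin2b* (adjusted p = 0.00435), -0.23 for *Grin2a* (adjusted p = 0.293) and -0.75 for *Grin2c* (adjusted p = 0.059). On that scale *Grin1* turned to 0.52 (adjusted p = 0.0592), while *Grin2d* at 0.83 (adjusted p = 0.00554) and *Grin3a* at 0.89 (adjusted p = 0.000182) were called higher. Against the shifted median of all genes the differences were -1.05 for *Grin2b*, -0.82 for *Grin2a*, -1.34 for *Grin2c*, -0.07 for *Grin1*, 0.24 for *Grin2d* and 0.30 for *Grin3a*. Subtracting that median takes most of the scaling back out. In the same order, the main fit less its own median gave -1.0, -0.8, -1.36, -0.13, 0.22 and 0.31. These differences therefore do not adjust for neuron markers, and *Grin2a* and *Grin2c* were not called on the neuron marker scale.

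Transcripts of the proteins that anchor and transport the receptor were lower where they were called. Of 18 listed genes, 7 were lower and none higher in CRE (median log2 fold change -0.28, against 0.02 over all genes tested, of which 13.8% were lower and 16.4% higher). Without Nedd8Cre1-3 and Nedd8Cre3-3, 10 were lower and 1 higher. Calls over all genes rose there too, to 2572 lower and 2920 higher of 14482. *Dlg2*, encoding the scaffold PSD-93, was at 524 ± 33.8 CPM (SD, n = 10) in RFP and 216 ± 67.1 CPM (n = 11) in CRE libraries (log2 fold change -1.30, adjusted p = 3.16e-06). *Dlg3*, encoding the scaffold SAP102 of young synapses, was at 188 ± 10.2 and 148 ± 19.5 CPM (-0.36, adjusted p = 0.00216). *Nsf*, an ATPase of membrane fusion, was at 547 ± 44.9 and 383 ± 53.3 CPM (-0.53, adjusted p = 6.47e-05). Under neuron marker scaling *Nsf* (0.02) and *Dlg3* (0.18) turned positive on the log2 scale and were not called. Both stayed under the median of all genes, which the scaling moves along with them.

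Kinases and phosphatases that act on the receptor included *Camk2a* and *Ptk2b*. Their log2 fold changes were the 2 largest in size among the genes named from lists other than the cell markers. Of 24 listed genes, 10 were lower and none higher (median log2 fold change -0.27), against 13.8% and 16.4% of all genes. Without Nedd8Cre1-3 and Nedd8Cre3-3, 14 were lower, beside 2572 lower of all 14482 genes in that set. *Camk2a*, the calcium/calmodulin-dependent kinase that binds the GluN2B tail, ran from 844 to 1880 CPM in RFP and from 226 to 558 CPM in CRE libraries (log2 fold change -1.99, adjusted p = 8.04e-10). Its groups did not overlap, and every CRE library was below every RFP library in 302 of 14488 genes (2.08%). *Ptk2b*, encoding the kinase Pyk2 upstream of Src, ran from 129 to 198 CPM in RFP and from 27.1 to 71.5 CPM in CRE libraries (-1.73, adjusted p = 1e-09).

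Signalling downstream of calcium entry was likewise lower in 9 of 17 listed genes and higher in none (median log2 fold change -0.51), against 13.8% and 16.4% of all genes. Once Nedd8Cre1-3 and Nedd8Cre3-3 were left out 11 were lower, beside 2572 lower of all 14482 genes in that set. *Rapgef2*, an exchange factor for Rap, was at 149 ± 15.7 CPM (SD, n = 10) in RFP and 78.5 ± 9.09 CPM (n = 11) in CRE libraries (-0.95, adjusted p = 1.63e-08). *Kalrn*, an exchange factor for small GTPases in spines, was at 202 ± 13.8 and 117 ± 13.9 CPM (-0.81, adjusted p = 7.73e-08). *Nos1*, the neuronal nitric oxide synthase tethered to the receptor through PSD-95, was at 62.4 ± 22.2 and 23.8 ± 6.68 CPM (-1.42, adjusted p = 5.66e-06). In these 3 genes the direction was the same under neuron marker scaling.

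Among genes for supply and removal of the co-agonists glycine and D-serine, more were called higher than lower. Of 15 listed genes 13 were tested, with 4 higher and 2 lower (median log2 fold change 0.25), against 16.4% and 13.8% of all genes. The 2 lower genes were near the share of all genes. Without Nedd8Cre1-3 and Nedd8Cre3-3 there were 5 higher and 2 lower, beside 2920 higher and 2572 lower of 14482 genes. *Slc6a9*, the glycine transporter GlyT1, ran from 9.51 to 20.98 CPM in RFP and from 23.4 to 85.3 CPM in CRE libraries (1.39, adjusted p = 1.21e-05). *Slc1a4*, the neutral amino acid transporter ASCT1, which carries serine, ran from 172 to 277 CPM in RFP and from 327 to 756 CPM in CRE libraries (1.10, adjusted p = 1.05e-06). In both genes every CRE library was above every RFP library, a pattern that was not counted over all genes. *Gldc*, the decarboxylase of the glycine cleavage system, was at 24.8 ± 4.94 and 41.9 ± 9.52 CPM (0.74, adjusted p = 0.000466), and the fourth higher gene was *Slc1a5* (0.76, adjusted p = 0.0419). *Srr*, serine racemase, which makes D-serine, was at 89.3 ± 10.2 and 48.6 ± 15.9 CPM (-0.90, adjusted p = 0.00094), and was not called under neuron marker scaling (-0.35, adjusted p = 0.117) or without culture 2 (-0.87, adjusted p = 0.068). *Slc7a10*, the alanine-serine-cysteine transporter Asc-1, was near the detection limit, at 2.35 ± 1.19 and 0.92 ± 0.73 CPM (-1.38, adjusted p = 0.033), and was not called over all 23 libraries (-0.71, adjusted p = 0.395).

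Regulators of subunit expression were called in 2 of 14 cases, 1 in each direction (median log2 fold change -0.28), a smaller share than the 30.2% of all genes called. *Rest*, a repressor of neuronal genes with *Grin* genes among its known targets, ran from 8.57 to 21.8 CPM in RFP and from 15.7 to 36.7 CPM in CRE libraries (0.80, adjusted p = 0.000512). *Grm5*, the metabotropic glutamate receptor 5, ran from 248 to 449 CPM in RFP and from 51.6 to 261 CPM in CRE libraries (-1.14, adjusted p = 3.12e-05). Without Nedd8Cre1-3 and Nedd8Cre3-3 the list had 3 higher and 4 lower genes, beside 5492 of 14482 genes called in that set. The smaller share of called genes did not hold there.

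**Figure D5:**
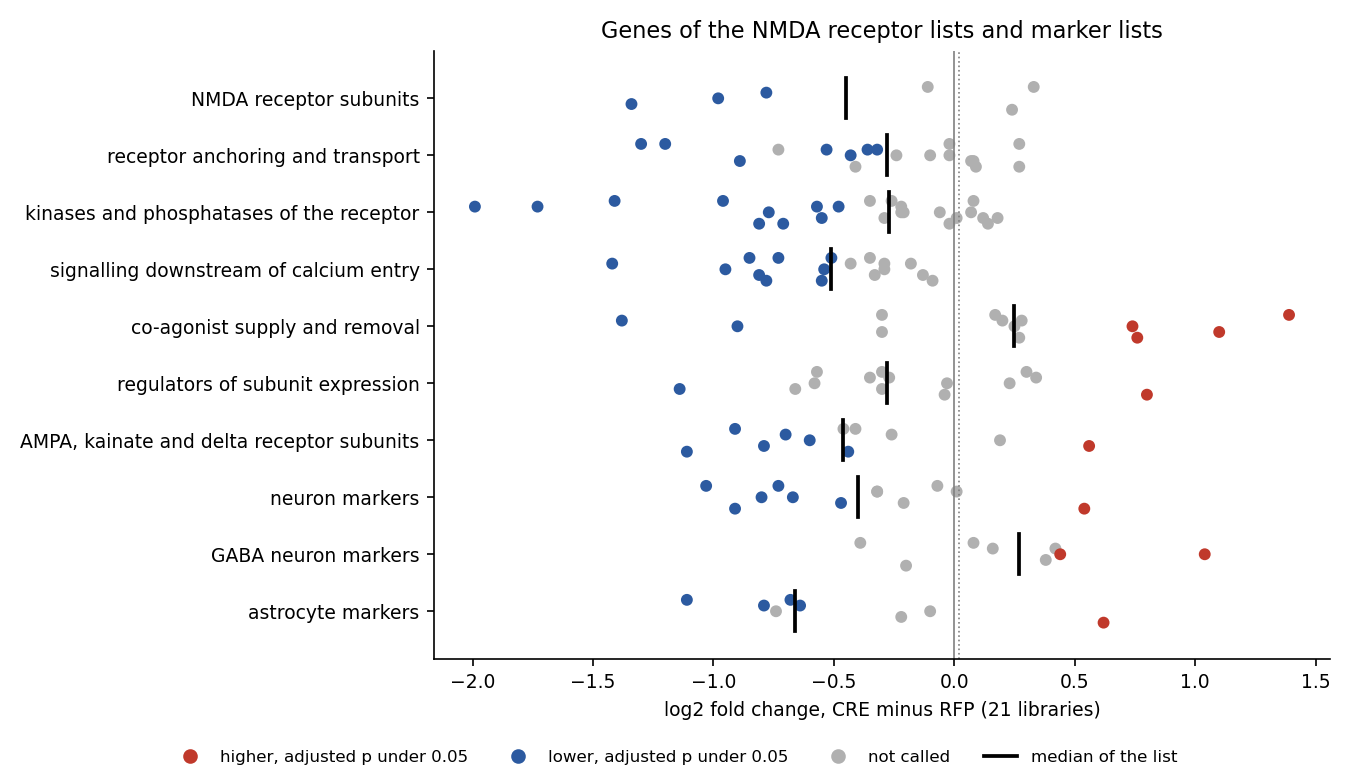
Log2 fold change (CRE minus RFP, 21 libraries) of the genes of each list, coloured where the adjusted p was under 0.05 (red higher, blue lower), with the median of the list as a bar and the median of all genes tested (0.02) as a dotted line. Called genes of the anchoring, kinase and signalling lists lie on the lower side, and the co-agonist list has 4 higher and 2 lower genes; under neuron marker scaling these medians become 0.28, 0.28 and 0.06 beside 0.592 for all genes.

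Among the genes whose log2 CPM was most like that of *Grin2b* over the 21 libraries were *Shtn1* (Spearman correlation 0.952), *Fam168a* (0.945), *Lmo3* (0.936) and *Frmpd4* (0.934). Those most like *Grin2a* were *Prox1* (0.887), *Rfx3* (0.883), *Lrrc7* (0.874), *H2ac25* (0.865) and *Ddx5* (0.86). The correlation between *Grin2a* and *Grin2b* was 0.774, whereas that between *Grin1* and *Grin2b* was 0.253 and that between *Grin1* and *Grin3a* -0.590. All of these describe the same 21 libraries of both groups, which share the difference between groups and the GC trends.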

How the data were processed

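The authors deposited whole-number counts of reads per gene for each library, without normalization. Per the labels and the methods of the study, libraries were made from poly-A RNA with Illumina Stranded mRNA Prep, sequenced on a NovaSeq6000, demultiplexed with bcl2fastq 2.20.0.422, aligned to GRCm39 with STAR 2.7.8a and counted with featureCounts 1.5.0-p1. The strand setting and the treatment of reads mapping to several places were not given in the sources used here. Exon lengths, GC content and names came from GENCODE M39 of the same build.

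The main comparison used edgeR 4.0.16 in R 4.3.3, with filterByExpr, TMM factors, a robust quasi-likelihood fit and p-values adjusted by Benjamini-Hochberg across the 14488 genes kept. For CPM, TMM factors were taken from the 14382 genes kept when the 23 libraries were filtered together. Ratios were log2 ratios of counts with 0.5 added, compared by two-sided permutation tests of group means, with intervals from inverting the test. Alternatives used DESeq2 1.42.0 and limma 3.58.1, other scalings, filters, libraries, blocks and sums per culture. For the ratios, log2 ratios were averaged per culture in place of sums. Smooth GC trends were removed with 5 spline degrees of freedom. The scripts were tested on simulated data. Totals over all 23 libraries ran from 1546796 to 17112815 counts, and *Grin2c*, the lowest member, had at least 11 counts per library.

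The 21 libraries are those of the count table of the study, whereas its methods name another pair as removed. The labels give 12 days in culture and the methods 13. The number after Cre or RFP was read as the culture; neither source says so in words. Libraries of 1 culture are not separate cultures, so p-values over libraries measure partly technical spread. Groups came from the labels. No library duplicated another.

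Named are the 6 members, *Grin3b*, up to 3 genes per direction with the smallest p among those called in each of the first 5 lists, and the 5 genes most like each of *Grin2a* and *Grin2b*; some genes the rule names are not reported here. *Slc1a5*, *Nefm*, *Gja1*, *Slc32a1*, *Dlx5*, *Gad2*, *Tmem119*, *Cx3cr1*, *Itgam* and *Gria4* were named after their values were seen. The members and lists were chosen with earlier results of these data known.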

Additional observations from a re-analysis of the deposited data

How the results depend on the processing

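Over 41 alternatives for each member, *Grin2b* was below 0 in all and called in 40, *Grin2a* called in 37 and *Grin2c* in 38, all with edgeR, DESeq2 or limma. The log2 fold change of *Grin1* turned to 0.24 over all 23 libraries, 0.52 with neuron markers as library size, 0.12 in culture 1 alone and 0.07 without culture 2. It was called at -0.37 without Nedd8Cre1-3 and Nedd8Cre3-3, -0.32 without the libraries with a GC trend and Nedd8RFP3-2, -0.28 with the GC trend removed and -0.45 in culture 2 alone. *Grin3a* was called at 0.49, 0.42, 0.89 and 1.16 without Nedd8Cre1-3 and Nedd8Cre3-3, without the GC trend libraries, with neuron marker scaling and in culture 3 alone, and was -0.11 in culture 1 alone. Calls were lost with neuron marker scaling for *Grin2a* (-0.23) and *Grin2c* (-0.75), in culture 1 alone for *Grin2a* (-1.11), *Grin2b* (-1.17) and *Grin2c* (-1.28), and in culture 3 alone for *Grin2a* (-0.60) and *Grin2c* (-0.95), where fewer samples were fitted. *Grin2d* was called at 0.83 with neuron marker scaling and was -0.32 in culture 2 alone. The *Grin2a* to *Grin2b* log2 ratio was -0.08 in culture 1 alone. The count of members called was 5 without Nedd8Cre1-3 and Nedd8Cre3-3, where 5492 of 14482 genes were called. It was 5 without the GC trend libraries, where 5582 of 14666 genes were called. In culture 1 alone it was 0, with 448 of 15461 genes called (edgeR, where 2514 genes had an unadjusted p under 0.05).

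With a library or a culture left out in turn, the range was -0.36 to 0.07 for *Grin1*, -0.89 to -0.61 for *Grin2a*, -1.06 to -0.88 for *Grin2b*, -1.55 to -1.12 for *Grin2c*, 0.05 to 0.57 for *Grin2d*, 0.02 to 0.57 for *Grin3a*, 0.12 to 0.31 for the *Grin2a* to *Grin2b* log2 ratio and 2 to 5 for the members called. The *Grin2d* to *Grin1* log2 ratio was -0.02 in culture 2 alone, and the *Grin3a* to *Grin1* log2 ratio -0.06 in culture 1 alone. With neuron marker scaling *Nsf* was at 0.02 and *Dlg3* at 0.18. The causes were not tested.

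Higher and lower calls over all genes were 2374 and 1996, 2949 and 1533 with total counts, 8258 and 446 with neuron marker scaling, 4367 and 2553 with no filter on low counts, 315 and 133 in culture 1 alone, 605 and 560 in culture 3 alone, 1311 and 803 without culture 2, and 2389 and 3114 with the GC trend removed. The median of all genes was 0.107 with total counts and 0.144 with no filter. With the culture number as replicate block *Grin2b* was at -0.98 (edgeR, adjusted p = 4.7e-05), and no call among the members changed. Deviations of same-numbered cultures correlated at 0.03, 0.04 and 0.13, so the numbers were not taken as pairs. All 23 libraries with the GC trend removed was added after seeing the data. Low counts limit *Grin2c*.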

Other observations

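*Grin3b*, the other GluN3 gene, did not pass the filter on low counts, with 280 counts over all 23 libraries and 0 in some, and ran from 0 to 2.85 CPM in RFP and from 0.092 to 5.59 CPM in CRE libraries among the 21 compared. Of the 11 AMPA, kainate and delta receptor subunits, 6 were called lower and 1, *Gria4*, higher in CRE (edgeR, median log2 fold change -0.46 against 0.02 over all genes, and 0.04 against 0.592 with neuron marker scaling), against 13.8% lower and 16.4% higher of all genes. Without Nedd8Cre1-3 and Nedd8Cre3-3, 7 were lower and 2 higher, beside 2572 lower and 2920 higher of 14482 genes. The summed level of the 6 NMDA receptor genes was 887 to 1190 CPM (median 1103) in RFP and 576 to 826 CPM (median 724) in CRE libraries, and *Grin2b* was the largest part of it in each of them except Nedd8Cre1-3, where *Grin1* was.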
